A study of Mus musculus with 8 samples.

Results

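The insulin-like growth factor (IGF) axis was followed in whole adrenals of mice with constitutive PKA activity. The 10 genes described here encode the ligands *Igf1* and *Igf2*, the receptors *Igf1r* and *Igf2r* and the binding proteins *Igfbp2* to *Igfbp7*. They were taken by annotated gene symbol from the 21905 symbols on the arrays, and each of the 10 had a single transcript cluster, the unit in which the array summarises the probes of a gene. Each adrenal sample gave 1 Affymetrix Mouse Gene ST array. There were 4 arrays labelled WT and 4 labelled sf1:Cre; Prkar1a Fl/Fl (KO below), all numbered as biological replicates. The methods give females aged 6 weeks and littermate controls, and whether the controls carried floxed alleles or Cre is not stated for the arrays. Both *Prkar1a* alleles of KO mice are floxed, and Cre under the regulatory regions of Sf1 deletes them in steroidogenic cells. *Prkar1a* encodes the regulatory subunit that restrains the PKA catalytic subunits. Capsule, vessels and medulla are in the gland but are not the cells that the driver is described to recombine, and the arrays do not say which cell an RNA came from.

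IGF1 and IGF2 are small secreted proteins that act through IGF1R, a receptor tyrosine kinase that signals to growth and survival pathways through insulin receptor substrates. IGF2R, which is also the cation-independent mannose 6-phosphate receptor, binds IGF2 and carries it to lysosomes. The IGF binding proteins hold the ligands outside cells, prolong their life and limit or deliver them to receptors, and proteases that cut the binding proteins release the ligand again. In the adrenal cortex the axis is known for its part in fetal growth and for the high *IGF2* expression of many human adrenocortical carcinomas.

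Promoter sequences were available from RefSeq (build GRCm38.p6) for all 10 genes, in 14 windows, since *Igf2* and *Igfbp2* have several start sites. The 250 bases before the start are shown for the 6 genes that passed the test below. The mice differ in PKA activity and the cells are steroidogenic, so the windows were searched on both strands for the cAMP response element (CRE) TGACGTCA, its 5-base core TGACG and the NR5A (SF1) site AAGGTCA, and for 2 general promoter elements, the GC box GGGCGG and the TATA box TATAAA. The full CRE contains this core. Capitals mark every match, and *Igfbp2* is shown at the first of its starts, since the window of the other held no match.
Igfbp2, chr1:72824230-72824479, plus strand: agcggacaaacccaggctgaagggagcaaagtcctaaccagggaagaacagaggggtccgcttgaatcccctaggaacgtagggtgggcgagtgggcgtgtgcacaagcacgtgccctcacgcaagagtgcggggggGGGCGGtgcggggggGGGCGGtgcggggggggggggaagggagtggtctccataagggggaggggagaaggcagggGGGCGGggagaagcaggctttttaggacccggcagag
Igfbp3, chr11:7213924-7214173, minus strand: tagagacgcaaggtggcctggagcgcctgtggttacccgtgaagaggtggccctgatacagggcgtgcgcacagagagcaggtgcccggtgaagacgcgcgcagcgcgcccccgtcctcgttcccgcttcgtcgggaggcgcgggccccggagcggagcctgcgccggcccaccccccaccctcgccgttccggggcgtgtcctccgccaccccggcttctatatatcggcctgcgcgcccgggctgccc
Igfbp4, chr11:99040994-99041243, plus strand: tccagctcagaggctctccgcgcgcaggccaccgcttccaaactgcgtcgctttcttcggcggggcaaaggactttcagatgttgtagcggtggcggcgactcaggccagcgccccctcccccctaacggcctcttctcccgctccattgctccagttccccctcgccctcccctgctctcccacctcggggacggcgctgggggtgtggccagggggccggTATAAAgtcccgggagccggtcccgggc
Igfbp7, chr5:77408046-77408295, minus strand: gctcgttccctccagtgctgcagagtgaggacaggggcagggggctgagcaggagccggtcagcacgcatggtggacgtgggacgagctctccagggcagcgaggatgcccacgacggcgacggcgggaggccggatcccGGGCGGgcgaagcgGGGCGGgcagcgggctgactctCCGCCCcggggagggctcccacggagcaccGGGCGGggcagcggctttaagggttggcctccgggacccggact
Igf1r, chr7:67952007-67952256, plus strand: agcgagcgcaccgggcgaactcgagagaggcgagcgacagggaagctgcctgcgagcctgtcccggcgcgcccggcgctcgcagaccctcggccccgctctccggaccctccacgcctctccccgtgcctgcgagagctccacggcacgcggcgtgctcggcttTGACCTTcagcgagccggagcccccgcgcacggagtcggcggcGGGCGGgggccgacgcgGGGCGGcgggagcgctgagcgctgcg
Igf2r, chr17:12769707-12769956, minus strand: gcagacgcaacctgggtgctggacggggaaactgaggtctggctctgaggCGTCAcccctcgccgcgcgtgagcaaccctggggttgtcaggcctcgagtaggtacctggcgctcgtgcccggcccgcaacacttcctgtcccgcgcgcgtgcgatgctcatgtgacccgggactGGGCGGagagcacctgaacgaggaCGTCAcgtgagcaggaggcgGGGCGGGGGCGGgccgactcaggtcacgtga

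None of the 14 windows held the full CRE, which 1.55% of 32851 RefSeq promoter windows of this length held. The core TGACG was found upstream of *Igf2r*, where both copies lie on the opposite strand with their first bases 200 and 51 bases before the start, and in 1 window of *Igf2*. It occurs in 17.8% of all windows. The NR5A site was found only upstream of *Igf1r*, on the opposite strand 86 bases before the start, and occurs in 4.08% of all windows. GC boxes were present in 6 of the 14 windows, those of *Igfbp2*, *Igfbp7*, *Igf1r*, *Igf2r* and 2 of *Igf2*, against 32.7% of all windows. The *Igfbp4* window holds a TATA box 28 bases before the start and that of *Igfbp6* one on the opposite strand, against 12.4% of all windows. The window of *Igfbp3* holds none of the searched motifs. CpG dinucleotides numbered 14 in the *Igfbp2* window, 32 in that of *Igfbp3*, 22 in that of *Igfbp4*, 26 in that of *Igfbp7*, 42 in that of *Igf1r* and 27 in that of *Igf2r*, where the median window has 6.0. These matches are descriptions of the letters and say nothing of whether a factor binds.

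The deposited values are log2 values after RMA, which corrects the background, brings the arrays to a shared distribution and summarises probes. Array medians lay between 5.66 and 5.72. The deleted gene followed the labels: *Prkar1a* was at 8.83, 9.11, 9.04 and 8.70 in WT and at 6.92, 7.30, 7.35 and 7.19 in KO adrenals. *Cyp11a1*, which starts steroid synthesis, was bright on every array, between 12.76 and 13.11. It also passed the test below as higher in KO adrenals, with a log2 fold change of 0.24. The table gives no detection calls. As a guide to the dim end, 1107 clusters of olfactory receptor genes had means with a 95th percentile of 5.23, and a change measured from near or below that value is not exact in size. Values of different genes come from different probes, so levels are compared only between arrays for the same gene.

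Of the 10 genes, 5 were higher in KO adrenals (*Igfbp2*, *Igfbp4*, *Igfbp3*, *Igf1r* and *Igf2r*), 1 was lower (*Igfbp7*), and 4 did not pass the test (*Igf1*, *Igf2*, *Igfbp5* and *Igfbp6*). The test was limma over all 22822 clusters with 1 gene symbol, at an adjusted p under 0.05. At that threshold 13.5% of all clusters passed in either direction, 7.35% as higher and 6.17% as lower, against 60% of the 10 genes. The 13.5% counts dim clusters too. A fit of only the clusters above the median level called 1691 higher and 1304 lower, which is a larger share of the clusters in that fit. All 10 genes lie above that level. The 60% and 13.5% are therefore not like for like, and no excess is read from them. The median log2 fold change of the 10 was 0.30, and that of all symbols was -0.020. In the same 6 genes KO and WT arrays did not overlap: all KO arrays lay above all WT arrays in 10% of clusters (2289 of 22822) and below them in 8.95%. The changes of *Igfbp2* and *Igfbp4* were also beyond 1 log2 unit, as for 2.01% of clusters. With whole glands, more cells of a type and more RNA per cell cannot be told apart in any of these values.

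**Figure D1:**
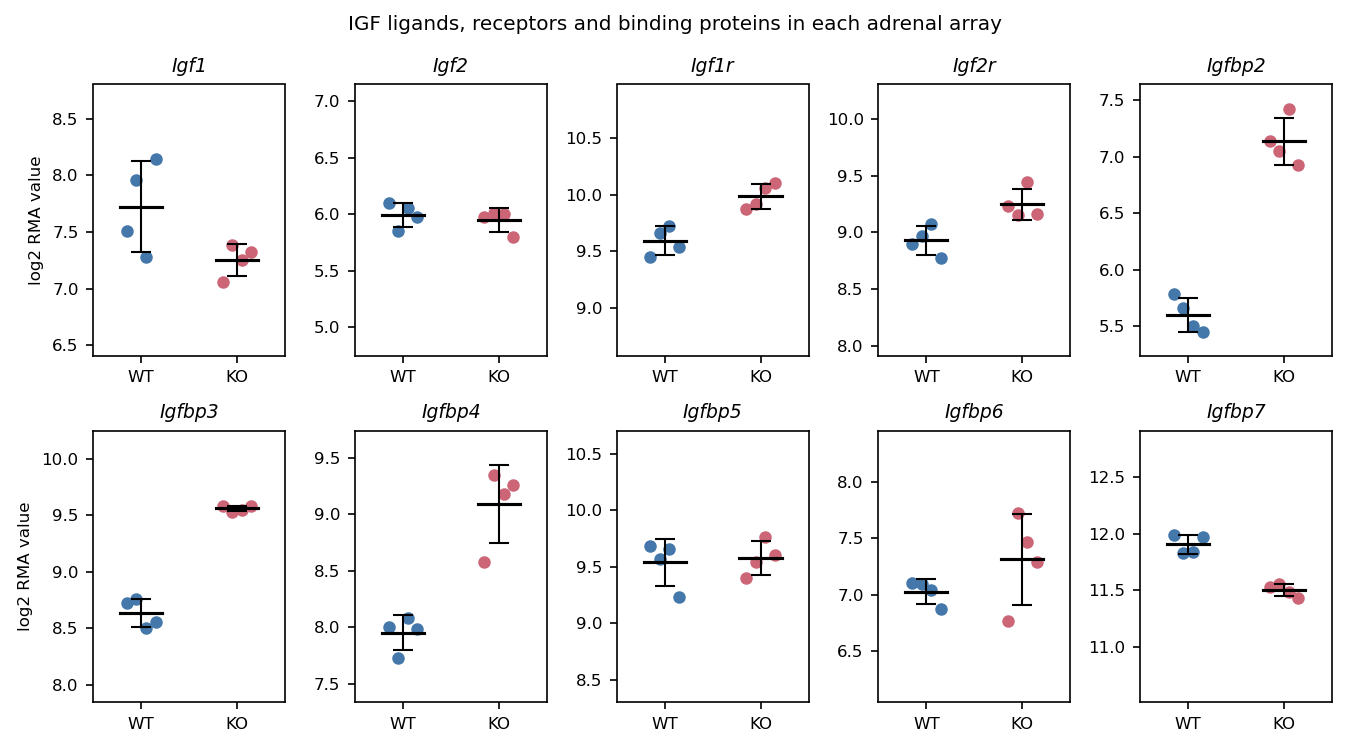
Log2 RMA value (y axis) of each gene in the 4 WT and 4 KO arrays, 1 point per array, with the mean and SD of each genotype in black; each panel spans 2.4 log2 units around its own values. KO points lie wholly above WT points for *Igf1r*, *Igf2r*, *Igfbp2*, *Igfbp3* and *Igfbp4* and wholly below them for *Igfbp7*.

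The ligands did not pass the test. *Igf1*, the main mediator of growth hormone action, was at 7.51, 7.96, 7.27 and 8.15 in WT adrenals and at 7.06, 7.39, 7.25 and 7.32 in KO adrenals. WT arrays ranged widely and replicate 3 lay among the KO arrays, so the genotypes overlapped. The log2 fold change was -0.47 (SE 0.17, 95% interval -0.85 to -0.089, adjusted p = 0.11 from limma). Without WT replicate 3 it was -0.62 and passed the test (adjusted p = 0.026). *Igf2*, the fetal growth factor transcribed from the paternal allele, was at 6.10, 5.85, 6.05 and 5.97 in WT and at 5.98, 6.01, 6.01 and 5.80 in KO adrenals. The ranges overlapped over most of their length, with KO replicate 4 the lowest array. The log2 fold change of *Igf2* was -0.044 with a 95% interval from -0.22 to 0.13, so a rise of more than 0.13 on the log2 scale lies outside that interval. *Igf2* values were close to the array medians in both genotypes.

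Both receptors were higher in KO adrenals, by less than the binding proteins that rose. *Igf1r*, the signalling receptor, was at 9.45, 9.67, 9.73 and 9.54 in WT and at 9.87, 9.92, 10.06 and 10.10 in KO adrenals. The lowest KO array lay above the highest WT array. *Igf1r* rose by 0.39 log2 units (SE 0.084, 1.31-fold, adjusted p = 0.011 from limma) and kept this call when any one array was left out. It did not pass in the *t*-test of the methods with unequal variances (adjusted p = 0.057). *Igf2r*, which clears IGF2, was at 8.90, 8.97, 9.07 and 8.77 in WT and at 9.23, 9.15, 9.45 and 9.16 in KO adrenals. The gap between the genotypes was narrow, from 9.07 to 9.15. *Igf2r* rose by 0.32 (SE 0.090, 1.25-fold, adjusted p = 0.041). That call stood without WT replicate 3 and was lost when any other array was left out, where the change lay between 0.25 and 0.35. It was also lost with array weights (0.27, adjusted p = 0.059) and in the *t*-test of the methods with equal or unequal variances (adjusted p = 0.10 and 0.12).

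*Igfbp2* had the largest change of the 10 genes. Its protein binds both IGFs with a preference for IGF2. Its values were 5.79, 5.66, 5.51 and 5.45 in WT and 7.14, 7.05, 7.42 and 6.93 in KO adrenals. WT arrays lay around the array medians and every KO array lay above them, more than 1 log2 unit from the nearest WT array. *Igfbp2* rose by 1.53 log2 units (SE 0.11, 2.90-fold, adjusted p = 1.9e-05 from limma) and stood at rank 75 by p among all symbols. Its WT mean of 5.60 ± 0.15 (SD, n = 4) was near the dim end, so the fold is not exact.

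*Igfbp3* encodes the main carrier of IGFs in serum, where it forms a complex with the acid-labile subunit. It was at 8.73, 8.75, 8.50 and 8.56 in WT and at 9.58, 9.53, 9.55 and 9.58 in KO adrenals. The 4 KO arrays were nearly the same, with a mean of 9.56 ± 0.026 (SD, n = 4), against 8.64 ± 0.12 (SD, n = 4) in WT. *Igfbp3* rose by 0.92 (SE 0.073, 1.90-fold, adjusted p = 3.0e-05 from limma). *Igfbp4*, an inhibitory binding protein that the protease PAPP-A cuts, was at 7.999, 7.73, 8.09 and 7.98 in WT and at 8.58, 9.34, 9.17 and 9.26 in KO adrenals. KO replicate 1 stood below the other KO arrays and still above every WT array. *Igfbp4* rose by 1.14 (SE 0.15, 2.20-fold, adjusted p = 7.8e-04 from limma), and by 1.31 without KO replicate 1. It did not pass in the *t*-test of the methods with unequal variances (adjusted p = 0.057).

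*Igfbp7* was the member that fell. It encodes a secreted protein of vessel walls that binds IGFs weakly and insulin more strongly than the other binding proteins do. It was at 11.98, 11.83, 11.84 and 11.97 in WT and at 11.53, 11.55, 11.48 and 11.43 in KO adrenals. Each genotype was tight and the ranges were well apart. *Igfbp7* fell by 0.41 log2 units (SE 0.067, adjusted p = 0.0025 from limma), with a range of -0.43 to -0.38 over the fits that left out 1 array.

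*Igfbp5*, which binds IGFs and the extracellular matrix, was at 9.69, 9.57, 9.66 and 9.23 in WT and at 9.40, 9.54, 9.76 and 9.60 in KO adrenals. The genotypes overlapped over most of their range, and the log2 fold change was 0.039 (95% interval -0.21 to 0.29). *Igfbp6*, whose protein prefers IGF2, was at 7.10, 7.10, 7.04 and 6.87 in WT and at 6.77, 7.73, 7.47 and 7.29 in KO adrenals. KO replicate 1 was below every WT array, and the other 3 KO arrays were above every WT array. The log2 fold change of *Igfbp6* was 0.29 (SE 0.17, adjusted p = 0.33 from limma). Without KO replicate 1 it was 0.47 and passed the test (adjusted p = 0.021).

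**Figure D2:**
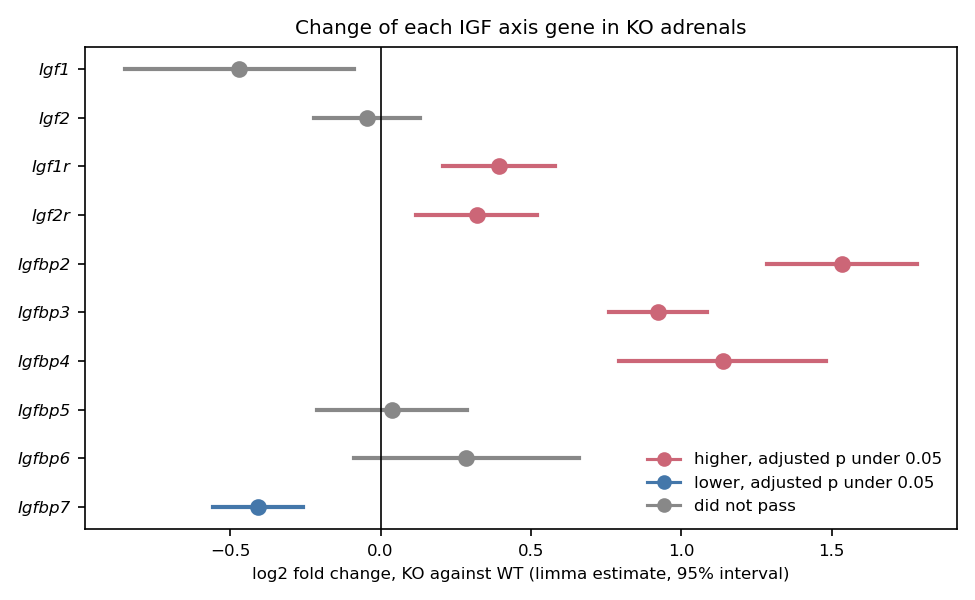
Log2 fold change of KO against WT for each gene (points) with its 95% interval from limma (lines), coloured by the outcome of the test over all clusters. Estimates run from -0.47 for *Igf1* to 1.53 for *Igfbp2*, and the intervals of *Igf2*, *Igfbp5* and *Igfbp6* include 0.

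*Igfbp2* and *Igfbp5* are neighbours in RefSeq, with 0 genes starting between them. The change of *Igfbp2* was 1.53 on the log2 scale and that of *Igfbp5* was 0.039, values given side by side as a description only. *Igfbp3* likewise lies beside *Igfbp1*, a gene that is induced in liver during fasting and is not among the 10. *Igfbp1* was at 4.86, 4.80, 4.58 and 4.71 in WT and at 4.42, 4.78, 4.63 and 4.69 in KO adrenals. These values are within the range of olfactory receptor clusters, so the change of *Igfbp1* is not compared with that of *Igfbp3*.

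Beyond the 10 genes, 82 genes of the wider pathway were listed and 71 were measured as single genes. Of these, 11 were higher and 9 lower in KO adrenals, 28.2% in all beside the 13.5% of all clusters, and their median log2 fold change was -0.033. Most of the 71 lay above the dim end, and a larger share of brighter clusters passed. The 28.2% and 13.5% are therefore not like for like, and no excess is read from them. Counts of lower genes depended on the test and on single arrays. They went from 9 to 4 with the *t*-test of the methods at equal variances, to 0 with unequal variances, to 4 without WT replicate 2 and to 5 without KO replicate 2 or KO replicate 4.

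A pair of secreted proteases was higher. Among 11 measured genes for other binding proteins and proteases, 2 rose, 1 fell and 8 did not pass, with a median log2 fold change of 0.12. *Pappa*, which encodes the metalloprotease PAPP-A that cuts IGFBP4 and frees bound IGF, was at 5.34, 5.73, 5.80 and 5.68 in WT and at 6.54, 6.97, 6.80 and 6.57 in KO adrenals. *Pappa* rose by 1.08 log2 units (SE 0.12, adjusted p = 2.6e-04 from limma), with all KO arrays above all WT arrays. Its WT mean of 5.64 was near the dim end, so the size of the rise is not exact. *Htra3*, a secreted serine protease, was at 6.93, 7.04, 7.06 and 7.19 in WT and at 8.09, 8.40, 8.55 and 8.26 in KO adrenals. *Htra3* rose by 1.27 (SE 0.10, adjusted p = 3.3e-05). *Igfals*, the acid-labile subunit, had a change of -0.41 (adjusted p = 0.038) between dim means of 5.08 and 4.67, and kept its call without 3 of the 8 arrays in turn. The PAPP-A inhibitors *Stc1* (0.12) and *Stc2* (-0.055) did not pass.

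Receptor signalling genes moved in both directions. Of 38 measured, 5 rose, 5 fell and 28 did not pass, with a median log2 fold change of -0.024. The number that rose was 3 without WT replicate 2, KO replicate 1, KO replicate 3 or KO replicate 4. The number that fell was 2 without WT replicate 2 and 3 without WT replicate 3 or KO replicate 4. Without another array it was up to 6. With array weights both numbers were 8. *Insrr*, the orphan receptor kinase related to the insulin receptor, was at 5.49, 5.26, 5.31 and 5.09 in WT and at 6.93, 6.45, 6.48 and 6.78 in KO adrenals. *Insrr* rose by 1.37 log2 units (SE 0.12, adjusted p = 6.2e-05 from limma) from a WT mean near the dim end. *Insr*, the insulin receptor itself, had a log2 fold change of 0.17, which missed the threshold (adjusted p = 0.15).

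*Irs1* and *Irs2*, adaptors that IGF1R and the insulin receptor phosphorylate, were lower. *Irs1* was at 6.93, 7.69, 7.34 and 7.35 in WT and at 6.08, 6.36, 6.21 and 6.26 in KO adrenals, and fell by 1.10 log2 units (SE 0.14, adjusted p = 4.8e-04 from limma). *Irs2* was at 6.68, 7.33, 7.08 and 6.78 in WT and at 6.57, 6.30, 6.56 and 6.36 in KO adrenals, and fell by 0.52 (adjusted p = 0.030). The lowest WT array of *Irs2* was close to the highest KO array, and its call was lost without WT replicate 2 (-0.40), WT replicate 3 (-0.48), KO replicate 2 (-0.47) or KO replicate 4 (-0.49). *Irs1* was lost only with unequal variances among the fits run (adjusted p = 0.055). *Pik3r1*, the regulatory subunit of PI3-kinase, fell by 0.44 (SE 0.098), and *Grb14*, an adaptor that inhibits these receptors, fell by 0.41 (SE 0.099). The *Grb14* call was lost without WT replicate 1 (-0.37, adjusted p = 0.054) or WT replicate 2 (-0.37, adjusted p = 0.060), and both calls were lost in the *t*-test of the methods with either variance, up to adjusted p = 0.091 for *Pik3r1* and 0.093 for *Grb14*. *Map2k1*, the kinase MEK1, rose by 0.41 (SE 0.072). *Grb10*, an imprinted inhibitor of the same receptors, had a log2 fold change of -0.32, which missed the threshold (adjusted p = 0.054).

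**Figure D3:**
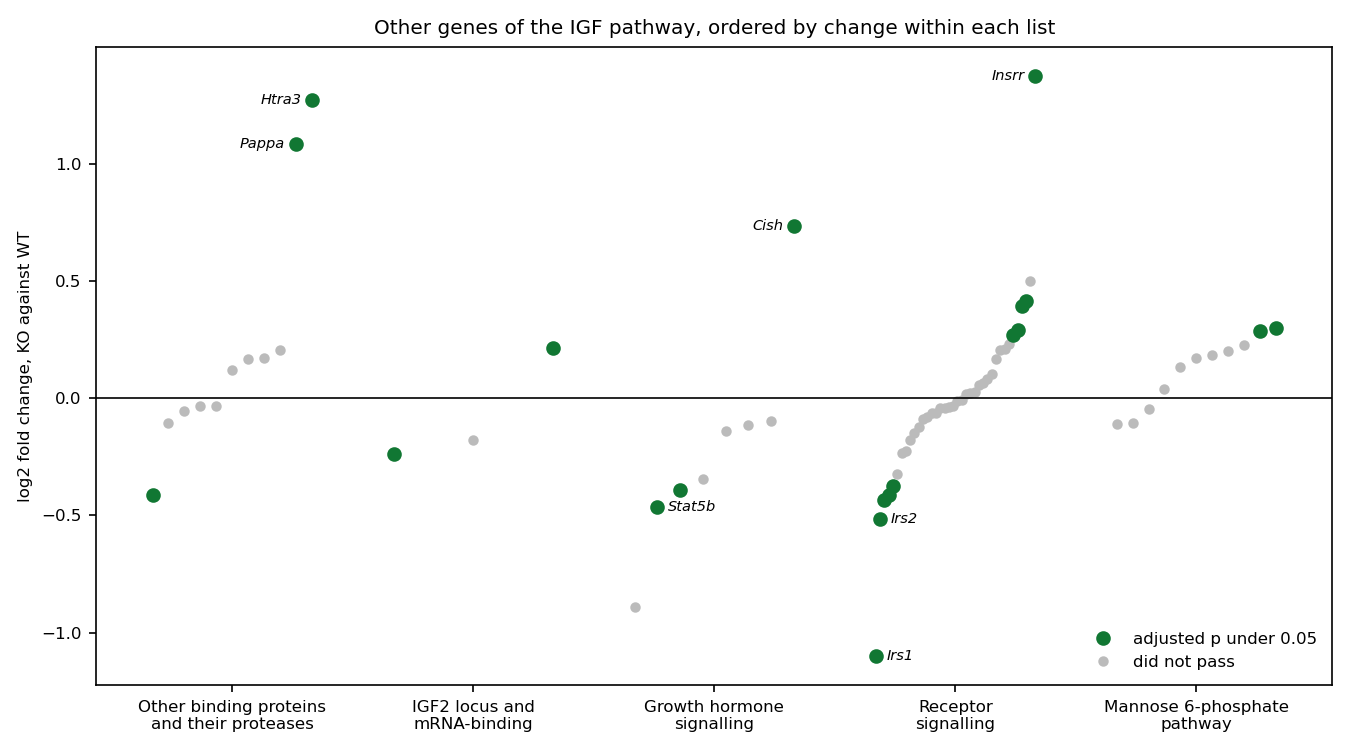
Log2 fold change of KO against WT (y axis) for the 71 measured genes of the wider pathway, grouped by list and ordered by change within a list, with green points for genes that passed the test and grey points for the others; names are given for those that passed beyond 0.45 in size. *Insrr* (1.37) and *Htra3* (1.27) lie at the top and *Irs1* (-1.10) at the bottom.

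Growth hormone signalling, which drives *Igf1* in liver, held 1 gene that rose and 2 that fell among 8 measured, with a median log2 fold change of -0.24. The number that fell was 1 without WT replicate 2, WT replicate 4, KO replicate 1 or KO replicate 2, and up to 3 without another array. *Ghr*, the growth hormone receptor, was at 7.07, 7.96, 7.73 and 8.35 in WT and at 6.34, 6.71, 7.55 and 6.95 in KO adrenals. Its log2 fold change was -0.89 (SE 0.29) and did not pass (adjusted p = 0.069 from limma), though it did without WT replicate 1 (-1.13) or without KO replicate 3 (-1.11). *Stat5b*, the transcription factor downstream of it, fell by 0.46 (SE 0.094, adjusted p = 0.0082). Of its target genes for feedback inhibitors, *Cish* rose by 0.73 (SE 0.12, adjusted p = 0.0026), and *Socs2* had a change of -0.39 (adjusted p = 0.048) that kept its call without 2 of the 8 arrays in turn. The members of the list therefore did not move one way.

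Of 6 genes listed for the imprinted loci and for binding of *Igf2* mRNA, 3 were measured as single genes, of which 1 rose and 1 fell. *Airn*, the non-coding RNA that overlaps *Igf2r* and silences its paternal copy, was at 6.34, 6.22, 6.41 and 6.32 in WT and at 6.09, 6.12, 6.05 and 6.10 in KO adrenals, a change of -0.24 (SE 0.064, adjusted p = 0.033 from limma) that kept its call without 1 of the 8 arrays in turn. *Igf2os*, transcribed across *Igf2*, was between 4.20 and 4.53 on all arrays, below the olfactory receptor percentile, with a change of 0.21 (adjusted p = 0.047) that likewise kept its call without 1 of the 8 arrays in turn. Whether probes of an overlapping pair read each other's RNA was not tested. Of 11 measured genes of the mannose 6-phosphate pathway that works with IGF2R, *Nagpa*, which uncovers the mannose 6-phosphate tag, rose by 0.30 (SE 0.066), *Vps35*, a retromer subunit, rose by 0.29 (SE 0.064) and the other 9 did not pass.

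Markers of other cell types moved on these arrays as well, and their part in the changes above was not tested. Endothelial markers were higher in KO adrenals, 6 of 12, with a median log2 fold change of 0.28 and list means of 8.25 to 8.43 in WT and 8.47 to 8.69 in KO arrays. *Pecam1* rose by 0.39 (SE 0.061) and *Kdr* rose by 0.44 (SE 0.094), the largest changes of this list. The 6 markers that did not pass changed by 0.042 to 0.23. Of 13 measured capsule and fibroblast markers, 2 rose, 1 fell and 10 did not pass, with list means of 7.87 to 8.01 in WT and 7.50 to 8.33 in KO arrays. *Rspo3*, a Wnt pathway ligand of the capsule, was at 8.93, 8.69, 8.84 and 8.68 in WT and at 7.52, 8.12, 8.22 and 7.87 in KO adrenals, and fell by 0.85 (SE 0.14, adjusted p = 0.0023 from limma). *Lum*, a fibroblast proteoglycan, rose by 1.25 (SE 0.19) and *Dcn*, decorin, had a change of 0.56 (SE 0.14) that lost its call without any of 5 arrays in turn. Without KO replicate 1 the number that rose was 6, and without WT replicate 1, WT replicate 2, KO replicate 2, KO replicate 3 or KO replicate 4 it was 1. KO replicate 1 was the lowest array of this list, at 7.50, and the lowest KO array of *Igf1*, *Igf1r*, *Igfbp4*, *Igfbp5* and *Igfbp6*. By list mean it was also the lowest KO array for endothelial, adipocyte, macrophage, chromaffin and smooth muscle markers. For adrenocortical and zona glomerulosa markers it was the highest KO array.

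Of 11 measured adipocyte markers 8 fell, with a median log2 fold change of -1.64 and list means of 7.91 to 9.95 in WT and 6.67 to 8.30 in KO arrays. Over the fits that left out 1 array that number ranged from 2 to 10. It was 2 without WT replicate 2, 3 or 4, 3 without KO replicate 2 or 4 and 5 without KO replicate 1. In the *t*-test of the methods it was 0. The largest changes were those of the brown fat genes *Ucp1* (-4.55, SE 0.84) and *Cidea* (-3.72, SE 0.69). Their KO means of 4.65 and 5.39 were near or below the dim end, so these sizes are not exact. WT replicate 1 was the lowest WT array of this list and lay within the KO range. It was also the lowest WT array of *Irs1*, *Irs2*, *Ghr*, *Stat5b* and *Igfals*, and of *Igf1r*, *Pappa* and *Htra3*, which rose. Without it *Irs1* changed by -1.23. For the 10 genes the calls were the same without WT replicate 1 except that of *Igf2r*. Of 10 measured adrenocortical markers 4 rose, 1 fell and 5 did not pass, with a median log2 fold change of 0.17. List means were 11.66 to 11.84 in WT and 11.97 to 12.10 in KO arrays. *Fdx1* (1.298, SE 0.11), *Scarb1* (0.86, SE 0.094) and *Mrap* (0.65, SE 0.078) changed most in this list. Over the fits that left out 1 array, 3 to 4 rose and 0 to 1 fell. Zona glomerulosa markers fell, 11 of 12, with list means of 8.85 to 9.26 in WT and 7.08 to 7.28 in KO arrays. Of 11 measured macrophage and immune markers only *Mrc1*, of 9 chromaffin markers only *Pnmt* and of 6 Schwann and glial markers only *Cdh19*, from a dim WT mean of 4.65, passed, all higher. The *Pnmt* call was kept without 3 of the 8 arrays in turn, with an adjusted p of up to 0.085, and all 3 calls were lost in the *t*-test of the methods. With limma none of 7 smooth muscle and pericyte markers passed, where 2 had an unadjusted p under 0.05; with the *t*-test of the methods none passed either.

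**Figure D4:**
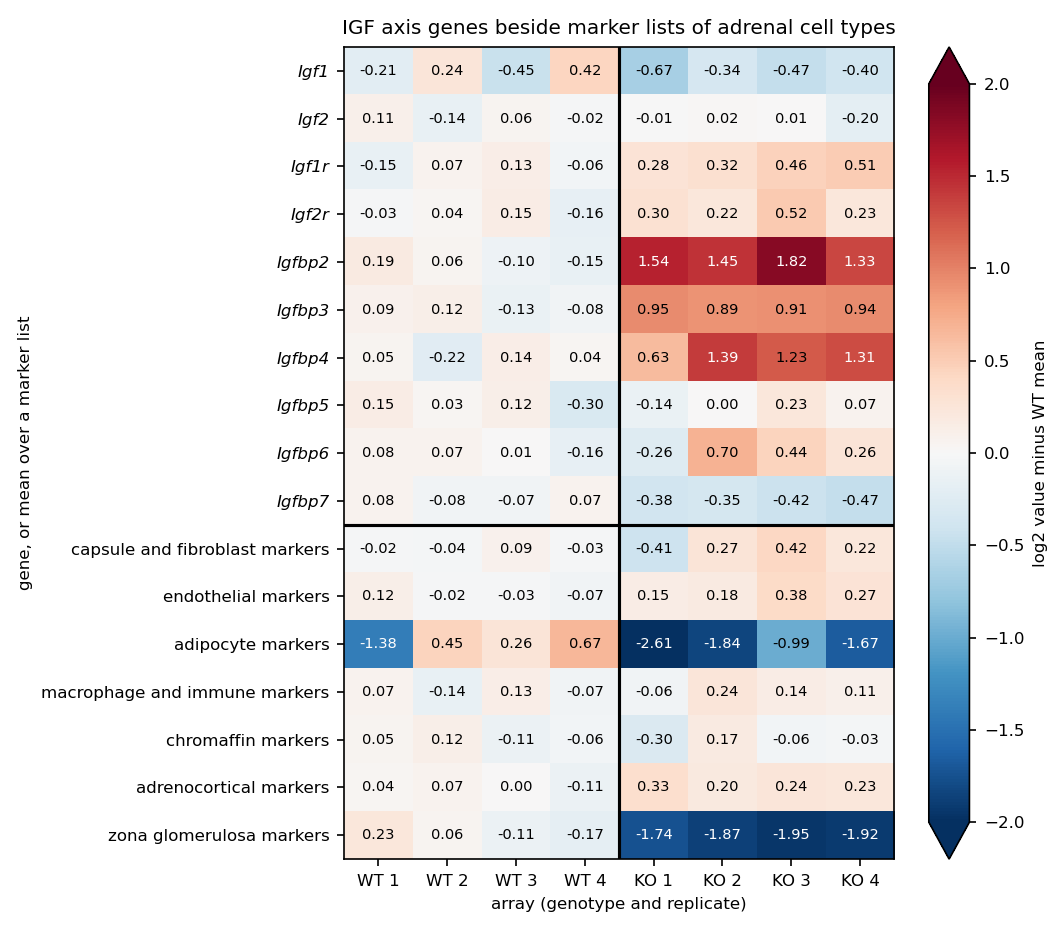
Log2 value minus the WT mean (numbers and colour) of each of the 10 genes and of the mean over each marker list, for each array in columns; the colour scale ends at 2 in either direction. KO replicate 1 is at 0.63 for *Igfbp4*, -0.26 for *Igfbp6* and -0.41 for the capsule and fibroblast markers, where the other KO arrays are all above 0. It is also the lowest KO array in the endothelial, adipocyte, macrophage and chromaffin rows.

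The genes whose values ran most like those of *Igfbp2*, which had the smallest adjusted p of the 10, were *Scly*, selenocysteine lyase (Pearson r = 0.996 over the 8 arrays), *Akr1b8*, an aldo-keto reductase (0.996), *Cttn*, the actin-binding protein cortactin (0.995), and *Vapb*, an endoplasmic reticulum membrane protein (0.995). The 8 points share 2 genotypes, so such values follow largely from the step between KO and WT. In all 4 genes KO replicate 3 was the highest array, as it was for *Igfbp2*. The genes were picked for their likeness over these same arrays, so a shared order of arrays follows from the choice.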

How the data were processed

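Adrenal RNA of 4 WT and 4 KO mice was measured on 8 arrays. Per the labels and methods, the authors normalised the arrays by RMA in R and deposited log2 values; the RMA version is not given in the sources used here. RMA with quantile normalisation removes differences in overall brightness between arrays. A second deposited table holds the authors' own fold changes and adjusted p-values and was not used. Of 28067 transcript clusters, 22822 had 1 gene symbol, 1703 had several and 3542 had none; symbols come from the platform annotation, of which 22679 entries were found in RefSeq by gene ID. Array correlations were 0.988 to 0.995 within WT, 0.990 to 0.995 within KO and 0.978 to 0.985 between them. KO was compared with WT by limma 3.58.1 (R 4.3.3; lmFit and eBayes) with Benjamini–Hochberg adjustment over the 22822 clusters at 0.05 and no covariates. The number of arrays limits the precision. On simulated data of 22822 clusters, the fit called 68% of the 50 clusters shifted by 0.5 log2 units and 92% of the 50 shifted by 1. The simulation drew independent noise and shifted far fewer clusters than passed in the real data. Its shares are therefore not the power of this comparison. Named genes were the 10 members, *Prkar1a*, up to 6 genes per pathway list and 3 per marker list that passed with the largest changes, *Igfbp1*, *Igf2os*, *Insr*, *Irs1*, *Irs2*, *Grb10* and *Ghr* whatever their result, and the 5 genes most like the member with the smallest adjusted p, of which the fifth is not reported here. *Stc1*, *Stc2* and *Cyp11a1* were added after their values were seen. *H19* shares its cluster with another symbol and is not reported. The members and lists were chosen with earlier results of these data known. The alternatives were the *t*-test of the methods, a replicate block, filters, array weights, other scalings and leaving out each array.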

Additional observations from a re-analysis of the deposited data

Results flagged for a closer look

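In 3 of 98 sets of 4 arrays looked at, 1 array lay apart from the other 3 by Dixon's criterion at 95%, which chance alone meets in about 1 in 20 sets. *Igf2* was at 5.80 in KO replicate 4, where the nearest KO array was at 5.98. *Ucp1*, the uncoupling protein of brown fat, was at 5.95 in WT replicate 1, where the nearest WT array was at 9.91. *Cidea*, a lipid droplet gene of brown fat, was at 6.4997 in WT replicate 1, where the nearest WT array was at 9.91.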

How the results depend on the processing

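*Igfbp2*, *Igfbp3* and *Igfbp7* kept their direction and their call under all 17 alternatives. In the *t*-test of the methods with unequal variances *Igf1r* (0.39, adjusted p = 0.057), *Igf2r* (0.32, 0.12) and *Igfbp4* (1.14, 0.057) did not pass, so that 2 members rose instead of 5, no other pathway gene of the 9 fell (0), and 710 clusters were higher and 492 lower. Of the genes named above, *Kdr*, *Lum*, *Rspo3*, *Stat5b* and *Irs1* lost their call there and under no other alternative. *Vps35*, *Irs2*, *Dcn*, *Airn*, *Igf2os*, *Igfals* and *Socs2* also lost their call under at least 1 alternative that kept every array. With equal variances *Igf2r* did not pass (0.32, 0.10), 4 other pathway genes fell, and 920 clusters were lower in place of 1407. Array weights also ended the *Igf2r* call (0.27, 0.059). Fewer residual degrees of freedom apply when an array is left out. Over those fits *Igf1* ranged from -0.62 to -0.33 and passed without WT replicate 3, which made 2 members lower (range 1 to 2), *Igf2* from -0.092 to 0.0066 with the sign turned without KO replicate 4, *Igf2r* from 0.25 to 0.37, *Igfbp5* from -0.062 to 0.098 with the sign turned without WT replicate 4 (-0.062) or KO replicate 3 (-0.023), and *Igfbp6* from 0.15 to 0.47, passing without KO replicate 1. Other pathway genes that fell ranged from 4 to 8. The causes were not tested.

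Replicate numbers did not pair the arrays: deviations of same-numbered arrays correlated at -0.014, 0.021, 0.042 and -0.040, and 0 of 4 arrays correlated best with their own number. With the replicate number as a block the members' calls were the same (*Igfbp2* 1.53, adjusted p = 1.6e-04; *Igf2r* 0.32, adjusted p = 0.034), and other pathway genes that rose went from 11 to 7. For 39 other named genes there were 659 values under the 17 alternatives, since *Cdh19*, *Igf2os*, *Igfals* and *Igfbp1* lie below the median level and have none with that filter. Of these, 560 kept direction and call, 91 lost the call, 8 gained it and 0 changed sign. Using other clusters of a member could not be run, since each has 1. The arrays carry no detection calls, so small changes near the dim end cannot be told from background.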
